A study of Mus musculus with 6 samples.

Results

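The splicing factor and hnRNP genes described here are the protein-coding rows of the count table whose GENCODE mouse symbol begins with Srsf and a digit, Snrp, Sf3a or Sf3b and a digit, or Hnrnp. There are 52 of them among the 54838 rows: 11 SR protein genes, 12 snRNP protein genes, 9 SF3A and SF3B subunit genes and 20 hnRNP genes. The snRNP protein genes, labelled snRNP core in the figures, hold the Sm ring genes and also genes of proteins particular to U1 or U2. Another 5 rows with such a symbol were not protein-coding and were left out. The members were chosen by name and not by a measured value, but the choice was made with earlier results of these data known. Both groups of mice carried the same leukemia, I1DN, a murine AML on a C57BL/6 background with the genotype IDH1R132H; DNMT3AR882H; NrasG12D. It was made by transducing fetal liver stem and progenitor cells with the mutant genes and was transplanted into Ptprca recipients that had been irradiated at a sublethal dose, and hosts treated in this way can keep hematopoietic cells of their own. The labels separate 3 Vehicle mice from 3 AG636 mice by treatment alone. AG636, an inhibitor of the pyrimidine synthesis enzyme DHODH, was given orally b.i.d. at 100 mg/kg, and the duration of treatment is given differently in different places of the sources used here. Leukemia cells were sorted from bone marrow and spleen by cKit and CD11b. The paper names the gate cKit+CD11b- for I1DN cells, and its methods name high cKit and low CD11b for sorted AML cells. The age of the mice is not given in the labels. RNA was read as 3′ end tags (QuantSeq), with 4634963 to 7906589 counts per mouse.

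Before translation, introns are removed from RNA polymerase II transcripts by the spliceosome, which is built anew on each intron from small nuclear RNPs. In these particles, Sm proteins form a ring around the snRNA, and the SF3A and SF3B complexes belong to the U2 particle that recognizes the branch point. SR proteins bind exons and generally favor the use of nearby splice sites, whereas hnRNP proteins coat nascent transcripts and often repress sites, and several members of both families also act in export, stability or translation of mRNA. Mutations of splicing genes, including the human counterparts of *Sf3b1* and *Srsf2*, are recurrent in myeloid neoplasms.

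AG636-treated leukemia cells had lower levels of a large part of these genes, in all 4 families. Of the 50 members with enough counts to be tested, 19 were lower at an adjusted p under 0.05 and 0 were higher (quasi-likelihood test in edgeR, with p adjusted by the Benjamini-Hochberg method over all 11092 genes tested, where SE below is the standard error on the log2 scale). The 19 make up 38.0% of the members tested, and over all genes tested 11.0% were called lower and 10.3% higher. At an unadjusted p under 0.05 there were 24 members, 0 of them higher, against 4112 of the 11092 genes tested, 2071 of them higher, and DESeq2 and limma-voom also called 0 members higher. The log2 fold change was negative for 46 of 50 members, against 47.7% of all genes tested, and its median was -0.28, against 0.03 for all genes tested. The levels of the 3 Vehicle and 3 AG636 mice did not overlap for 28 members, all lower with AG636, and in this sense 20.6% of all genes tested were lower and 20.5% higher. The members stood at higher levels than the genes tested as a whole. The median Vehicle level was 469 CPM for called members and 342 CPM for those not called, against 30.5 CPM for all genes tested. The median SE was 0.12 in both sets of members, against 0.20 for all genes tested. A smaller SE makes a change of a given size easier to call, and what part level has in these shares was not tested. Summed over the members, the level went from 22240 ± 667 CPM (counts relative to the TMM-scaled library, mean ± SD, n = 3) to 17997 ± 581, which is 19.1% lower. The TMM factors were 0.953 to 0.9865 with vehicle and 1.019 to 1.043 with AG636. This scaling lowers the AG636 sums relative to Vehicle, for all members and for each family, and sums without it are not given here. The members' log2 fold changes ranged from -0.75 for *Sf3a2* to 0.15 for *Hnrnph3*. With 3 mice a group, an exact permutation test of 1 gene cannot give a two-sided p below 0.1, so calls rest on the fit across all genes.

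**Figure D1:**
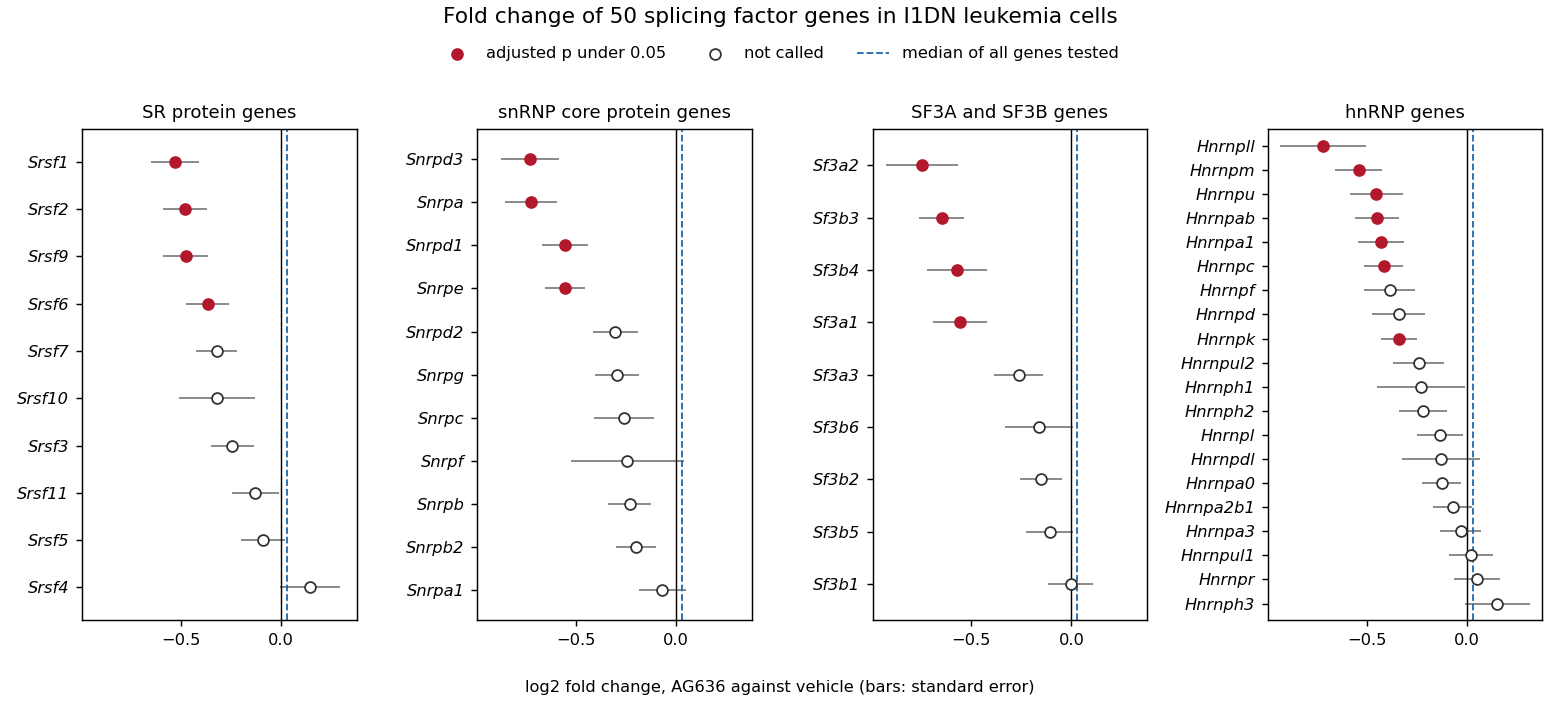
The horizontal axis gives the log2 fold change of AG636 against Vehicle with its standard error (SE) for each of the 50 members tested, by family, with filled points for an adjusted p under 0.05 and a dashed line at the median of all genes tested. All 19 filled points lie left of 0, and the members right of 0, *Srsf4*, *Hnrnph3*, *Hnrnpr* and *Hnrnpul1*, have open points.

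The number of calls depended on the samples in the fit more than the direction did. Without AG636 replicate 3, 5 members were called lower, without AG636 replicate 1 there were 8, and without Vehicle replicate 1 there were 11. In these fits 4.03%, 5.54% and 6.18% of all genes tested were called lower. *Snrpa*, *Snrpe*, *Snrpd3*, *Sf3b3* and *Hnrnpm* were called under all 13 alternatives. With library size in place of TMM scaling, 14 members were called lower, and 8.23% of all genes tested were. The sign was then negative for 41 of 50 members, while the share of lower genes among all calls went from 51.6% to 38.1%.

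Markers of more mature myeloid cells moved with the groups. The summed level of 8 mature neutrophil markers was 1035 to 2366 CPM with vehicle and 2883 to 5885 CPM with AG636, and 6 of the 8 were called higher. *Itgam*, which encodes CD11b, was at 12.1 to 27.0 CPM with vehicle and 31.3 to 60.1 CPM with AG636 and was called higher. Of 7 monocyte and macrophage markers, 1 was called higher, with sums of 110.2 to 181 CPM against 174 to 312 CPM. The 6 immature myeloid markers summed to 1891 to 3657 CPM against 1305 to 3305 CPM with 0 called of 5 tested, and *Kit* itself was at 31.8 to 43.1 CPM against 37.3 to 46.3 CPM. *Mpo* was the largest part of this sum in each mouse, at 1252 to 2772 CPM against 618 to 2022 CPM (log2 fold change -0.65). The log2 fold changes of *Kit*, *Cd34*, *Myb* and *Elane* were 0.15, 0.45, 0.03 and 1.05. Of 7 erythroid markers 2 were called lower, with sums of 1641 to 4664 CPM against 1941 to 3221 CPM. The 7 T and NK cell markers summed to 199 to 338 CPM against 262 to 504 CPM, nearly all of it *Nkg7*, the 5 B cell markers to 5.53 to 14.2 CPM against 14.0 to 19.3 CPM, and the 5 stroma and endothelium markers to 105 to 177 CPM against 151 to 245 CPM, nearly all of it *Pecam1*, with *Cdh5* at 0 in all mice. None of these 3 lists had a called gene. In sorted bulk samples, fewer cells of a type and less RNA per cell cannot be told apart. What part the maturation markers have in the lower splicing factor levels was not tested.

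The promoters of the members were searched for 3 motifs on both strands, in RefSeq windows of the GRCm38.p6 assembly that run from 250 bases before to 50 after each annotated start. Windows were found for 44 of the 50 members tested, and *Hnrnpll*, *Hnrnpul2*, *Sf3b4*, *Sf3b5*, *Snrpb* and *Snrpd1* had none in the table. The ETS motif CCGGAAG was present in 16 of 44 members (36.4%), in 22.6% of the genes tested that have a window and in 9.93% of all genes of the promoter table. It was found in 6 of 7 SF3A and SF3B genes, *Sf3b1* being the exception, in 4 of 10 SR protein genes, 4 of 9 snRNP protein genes and 2 of 18 hnRNP genes. Of the called members 4 of 16 held it, and of those not called 12 of 28. The E-box CACGTG, the site of MYC and MAX, was in 6 of 44 members (13.6%), against 12.3% of genes tested and 8.09% of all genes. The YY1 core GCCATNTT was in 5 of 44 (11.4%), against 11.0% and 6.96%, namely in the called members *Srsf2*, *Hnrnpc* and *Sf3a1* and in *Hnrnpd* and *Hnrnpul1*, which were not called. For each family 1 window is shown, that of the called member with the lowest adjusted p among those with a single window, 5′ to 3′ along the gene. The capitals are the YY1 core in *Srsf2* (chr11:116853045-116853344, minus strand), overlapping ETS motifs of both strands in *Snrpe* (chr1:133610231-133610530, minus strand), the ETS motif read on the other strand in *Sf3b3* (chr8:110846754-110847053, minus strand) and the E-box in *Hnrnpm* (chr17:33685409-33685708, minus strand).
Srsf2: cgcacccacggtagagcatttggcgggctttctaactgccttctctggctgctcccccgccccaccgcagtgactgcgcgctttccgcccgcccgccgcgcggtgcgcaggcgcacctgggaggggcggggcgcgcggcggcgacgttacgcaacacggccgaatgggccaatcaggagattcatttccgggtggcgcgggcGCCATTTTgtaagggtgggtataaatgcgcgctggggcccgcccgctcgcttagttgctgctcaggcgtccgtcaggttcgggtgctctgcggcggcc
Snrpe: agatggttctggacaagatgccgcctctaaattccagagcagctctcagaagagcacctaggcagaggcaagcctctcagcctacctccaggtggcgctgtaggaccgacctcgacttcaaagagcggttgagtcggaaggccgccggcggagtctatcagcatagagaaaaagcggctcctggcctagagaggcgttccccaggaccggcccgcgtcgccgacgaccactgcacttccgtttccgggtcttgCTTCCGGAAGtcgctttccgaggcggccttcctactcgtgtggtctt
Sf3b3: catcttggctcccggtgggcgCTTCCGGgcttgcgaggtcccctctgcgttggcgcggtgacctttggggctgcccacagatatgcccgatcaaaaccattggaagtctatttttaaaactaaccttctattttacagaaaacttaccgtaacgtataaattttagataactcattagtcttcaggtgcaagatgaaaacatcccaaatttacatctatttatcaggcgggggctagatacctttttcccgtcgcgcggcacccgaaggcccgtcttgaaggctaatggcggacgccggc
Hnrnpm: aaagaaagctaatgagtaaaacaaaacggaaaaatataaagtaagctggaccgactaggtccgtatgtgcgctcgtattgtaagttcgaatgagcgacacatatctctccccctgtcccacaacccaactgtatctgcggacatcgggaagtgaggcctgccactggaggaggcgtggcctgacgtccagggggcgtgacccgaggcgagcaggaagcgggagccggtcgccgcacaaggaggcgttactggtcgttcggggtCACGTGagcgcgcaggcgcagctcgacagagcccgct
A match is a description of the letters, and no binding was measured here. In *Srsf2* the core begins 48 bases before the start, in *Snrpe* and *Hnrnpm* the motifs lie just after it, and in *Sf3b3* the ETS motif lies 229 bases before it. The start is the annotated RefSeq start, and for *Hnrnpm* it lies inside the deposited gene, whose 5′ end is at 33686860.

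Of the 10 SR protein genes tested 9 had a negative log2 fold change, and 4 were called lower with AG636: *Srsf1*, *Srsf2*, *Srsf6* and *Srsf9*. Their median log2 fold change was -0.32, and the summed level of the family was 4208 ± 201 CPM with vehicle and 3398 ± 212 CPM with AG636, or 19.2% lower. *Srsf1* encodes the founding SR protein, an activator of exon inclusion that is also known as an oncoprotein (chr11:88047373-88053755 in the deposited coordinates of mm10, plus strand). Its level was 495, 399 and 513 CPM in the Vehicle mice and 318, 329 and 327 CPM in the AG636 mice. The AG636 mice lay within a narrow band under the lowest Vehicle mouse. The log2 fold change of *Srsf1* was -0.53 (SE 0.12, adjusted p = 0.0156, edgeR). *Srsf2* encodes SC35, a marker protein of nuclear speckles (chr11:116849901-116853094, minus strand). It was at 888, 768 and 824 CPM with vehicle and 635, 597 and 549 CPM with AG636, with no overlap, a log2 fold change of -0.48 (SE 0.11, adjusted p = 0.0153, edgeR). Its exons overlap *Mettl23* and *Mfsd11* on the opposite strand, and these had 1365 and 508 counts in all against 23585 for *Srsf2*, whereas the log2 fold change of *Mettl23* was -0.16 and that of *Mfsd11* 0.30, neither called. The call of *Srsf2* was lost without AG636 replicate 3 (adjusted p = 0.0648, edgeR), and that of *Srsf1* without AG636 replicate 3 (0.0553) or AG636 replicate 1 (0.0570).

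*Srsf9*, a short SR protein with a reduced arginine-serine tail, was at 231, 199 and 219 CPM with vehicle and 160.1, 152 and 154 CPM with AG636, a log2 fold change of -0.48 (SE 0.11, adjusted p = 0.0172, edgeR). *Srsf6*, a regulator of alternative exons, was at 352, 328 and 311 CPM against 262, 263 and 244 CPM, a log2 fold change of -0.37 (SE 0.11, adjusted p = 0.0368, edgeR). For both genes the AG636 mice lay under all Vehicle mice. *Srsf9* lost its call without AG636 replicate 1, AG636 replicate 3 or Vehicle replicate 1 (adjusted p from 0.0504 to 0.0623, edgeR), and *Srsf6* without any 1 mouse but Vehicle replicate 3 (0.0545 to 0.125) and with library size alone or a replicate block (0.0787 and 0.0552). *Srsf7*, which like *Srsf3* links splicing to mRNA export, just missed the threshold. It was at 478, 446 and 472 CPM with vehicle and 398, 356 and 364 CPM with AG636, without overlap (log2 fold change -0.32, SE 0.10, adjusted p = 0.0518, edgeR). *Srsf3* was at 637, 608 and 663 CPM and 501, 594 and 518 CPM, also without overlap and not called (log2 fold change -0.24, adjusted p = 0.135, edgeR). Its level in AG636 replicate 2 came close to the lowest Vehicle mouse. *Srsf10*, a splicing repressor when dephosphorylated, split the AG636 mice, with 285, 233 and 233 CPM in the Vehicle group and 181, 267 and 155 CPM in the AG636 group. Its log2 fold change of -0.32 was not called (SE 0.19, adjusted p = 0.254, edgeR), and without AG636 replicate 2 it was -0.58 with an adjusted p of 0.0247 (edgeR). Leaving out AG636 replicate 1 instead gave -0.25 (adjusted p = 0.479, edgeR), and leaving out AG636 replicate 3 gave -0.16 (adjusted p = 0.607, edgeR). *Srsf11* (537 CPM with vehicle, log2 fold change -0.13), *Srsf5* (-0.09) and *Srsf4* (0.15, SE 0.15) had overlapping groups and adjusted p of 0.459, 0.594 and 0.512 (edgeR). *Srsf12* had 2 counts over all mice and was not tested.

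**Figure D2:**
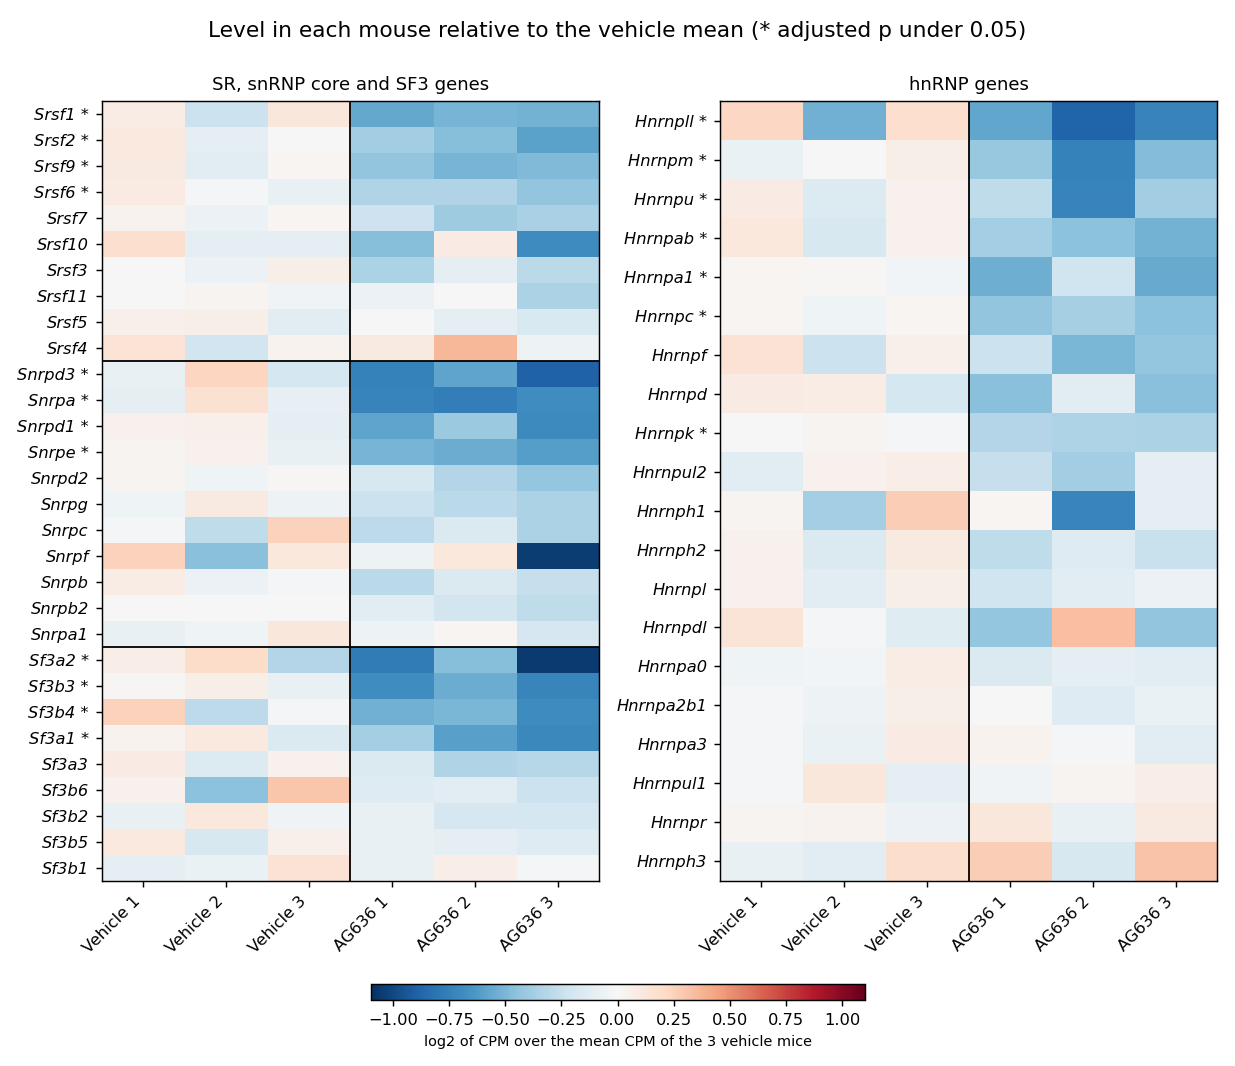
Each cell is the log2 of the CPM of a member in 1 mouse over the mean of the 3 Vehicle mice, from blue (lower) to red (higher), with members in rows by family, mice in columns and an asterisk for an adjusted p under 0.05. Rows with an asterisk are blue in all 3 AG636 mice, while *Srsf10* and *Hnrnpdl* are blue in AG636 replicates 1 and 3 and red in AG636 replicate 2.

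All 11 snRNP protein genes tested had a negative log2 fold change, with a median of -0.30, and 4 were called: *Snrpa*, *Snrpe*, *Snrpd3* and *Snrpd1*. The family's summed level went from 3504 ± 80.4 CPM to 2665 ± 150 CPM, 24.0% lower. By part, the sum was 27.2% lower for the Sm ring genes, 25.6% for the U1 genes and 11.0% for the U2 genes. Within it, 3 of the 7 Sm ring genes tested were called, 1 of the 2 genes of U1 proteins and 0 of the 2 genes of U2 proteins. *Snrpa* encodes U1-A, which binds a stem-loop of U1 snRNA (chr7:27187005-27196271, minus strand). It was at 84.3, 102 and 84.8 CPM with vehicle and at 54.4, 53.2 and 56.1 CPM with AG636. The AG636 mice were nearly alike and far under the Vehicle mice (log2 fold change -0.73, SE 0.13, adjusted p = 0.00678, edgeR). An exon of *Snrpa* overlaps *BC024978* on the opposite strand, which had 237 counts against 2466. *Snrpc*, the other U1 gene, had overlapping groups, with 138, 116 and 167 CPM and 115, 126 and 110.2 CPM (log2 fold change -0.26, SE 0.15, adjusted p = 0.232, edgeR).

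The Sm proteins E, D3 and D1, which with B, D2, F and G close the ring around the snRNA, were encoded by the called genes of the ring. *Snrpe* was at 678, 684 and 628 CPM with vehicle and 465, 455 and 436 CPM with AG636 (chr1:133603871-133610291, minus strand), a log2 fold change of -0.55 (SE 0.10, adjusted p = 0.00690, edgeR). *Snrpd3* was at 256, 320.2 and 237 CPM and 162, 182 and 146 CPM (chr10:75517551-75537381, plus strand), a log2 fold change of -0.73 (SE 0.14, adjusted p = 0.00955, edgeR). *Snrpd1* was at 715, 719.5 and 643 CPM and 464, 523 and 427 CPM, a log2 fold change of -0.56 (SE 0.11, adjusted p = 0.0115, edgeR). For these 3 genes every AG636 mouse was under every Vehicle mouse, and only *Snrpd1* missed the threshold in 1 of the alternatives, with an adjusted p of 0.0505 (edgeR) without AG636 replicate 3. *Gucd1* overlaps exons of *Snrpd3* on the opposite strand, with 461 counts against 7437. *Snrpd2* (308, 291 and 303 CPM against 267, 240.0 and 224 CPM), *Snrpg* (234, 259 and 233 CPM against 205, 196 and 190.3 CPM) and *Snrpb* (389, 350.4 and 361 CPM against 299, 329 and 308 CPM) did not overlap between groups either, but were not called. Their log2 fold changes were -0.30, -0.30 and -0.23 and their adjusted p 0.0764, 0.0768 and 0.139 (edgeR). *Snrpf*, the remaining ring gene, was at 64.9, 39.6 and 59.1 CPM and 52.5, 59.2 and 26.4 CPM, and the spread among mice gave a standard error of 0.28 on a log2 fold change of -0.24. The U2 genes *Snrpb2*, for U2-B″, and *Snrpa1*, for U2-A′, had log2 fold changes of -0.20 and -0.07 with adjusted p of 0.176 and 0.706 (edgeR). *Snrpb2* was at 515, 519 and 515 CPM against 473, 449 and 426 CPM, without overlap. *Snrpn*, the imprinted gene of the neuronal Sm protein N, had 0 counts in all mice, which allows a level of up to 0.392 to 0.637 CPM, the range of 3 counts over the samples, and its exons are shared with *Snurf* and *Gm38393*.

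All 9 SF3A and SF3B genes were tested and all had a negative log2 fold change, with a median of -0.26. The 4 called members were *Sf3a1* and *Sf3a2* of SF3A and *Sf3b3* and *Sf3b4* of SF3B, so calls took 2 of the 3 SF3A genes and 2 of the 6 SF3B genes. Summed levels were 363 ± 30.1 CPM with vehicle and 254 ± 23.3 CPM with AG636 for SF3A (30.2% lower), and 1971 ± 110.4 CPM and 1697 ± 49.5 CPM for SF3B (13.9% lower). *Sf3b3* encodes the large SF3B subunit that holds *Sf3b1*'s product (chr8:110810239-110846787, minus strand). Its level was 307, 318 and 288 CPM in the Vehicle mice and 189, 209 and 184 CPM in the AG636 mice, a clear gap. The log2 fold change of -0.65 (SE 0.11) had the lowest adjusted p of the members, 0.00572 (edgeR). *Cog4* overlaps an exon of *Sf3b3* on the opposite strand, had 1308 counts against 8410 and a log2 fold change of -0.07, not called. *Sf3b1*, the subunit that contacts the branch point and is mutated in myeloid neoplasms, was at 412, 419 and 491 CPM and 417, 465 and 437 CPM, with mixed order of the mice. Its log2 fold change was -0.0034 with a standard error of 0.11 and an adjusted p of 0.986 (edgeR).

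*Sf3a2*, the SF3A subunit with a U1-C-like zinc finger, had the largest fold in size among the members tested, with 132, 143 and 99.7 CPM with vehicle and 73.1, 90.3 and 60.2 CPM with AG636. The lowest Vehicle mouse was only just above the highest AG636 mouse, and the log2 fold change was -0.75 (SE 0.18, adjusted p = 0.0197, edgeR). Its exons overlap *Plekhj1* on the opposite strand, and *Plekhj1* had 1532 counts against 3412 and a log2 fold change of -0.45 (adjusted p = 0.0521, edgeR). The use of strand in counting is not given in the sources used here, so reads of the pair cannot be fully told apart. *Sf3a1*, which carries the SURP domains of the complex, was at 131, 137 and 114 CPM and 98.3, 83.9 and 77.8 CPM (log2 fold change -0.56, SE 0.14, adjusted p = 0.0198, edgeR). *Sf3b4*, an RNA-recognition subunit, was at 225, 155 and 188 CPM and 131, 134 and 117 CPM (log2 fold change -0.57, SE 0.15, adjusted p = 0.0248, edgeR). These 3 genes had no overlap between groups and lost the call without AG636 replicate 3, where the adjusted p were 0.0727, 0.0792 and 0.0912 (edgeR). *Sf3a2* and *Sf3a1* also lost it without Vehicle replicate 2 (0.0705 and 0.0674), *Sf3a2* and *Sf3b4* without AG636 replicate 1 (0.0641 and 0.0662), and *Sf3b4* without Vehicle replicate 1 (0.0674). *Sf3a3* was at 118, 100.2 and 115 CPM and 99.6, 88.3 and 89.1 CPM, without overlap and not called (log2 fold change -0.26, adjusted p = 0.151, edgeR). *Sf3b2* had a mean of 491 CPM with vehicle and 442 CPM with AG636, and *Sf3b6* and *Sf3b5* 342 against 305 CPM and 203 against 188 CPM. None of the 3 was called, with log2 fold changes of -0.15, -0.16 and -0.11.

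**Figure D3:**
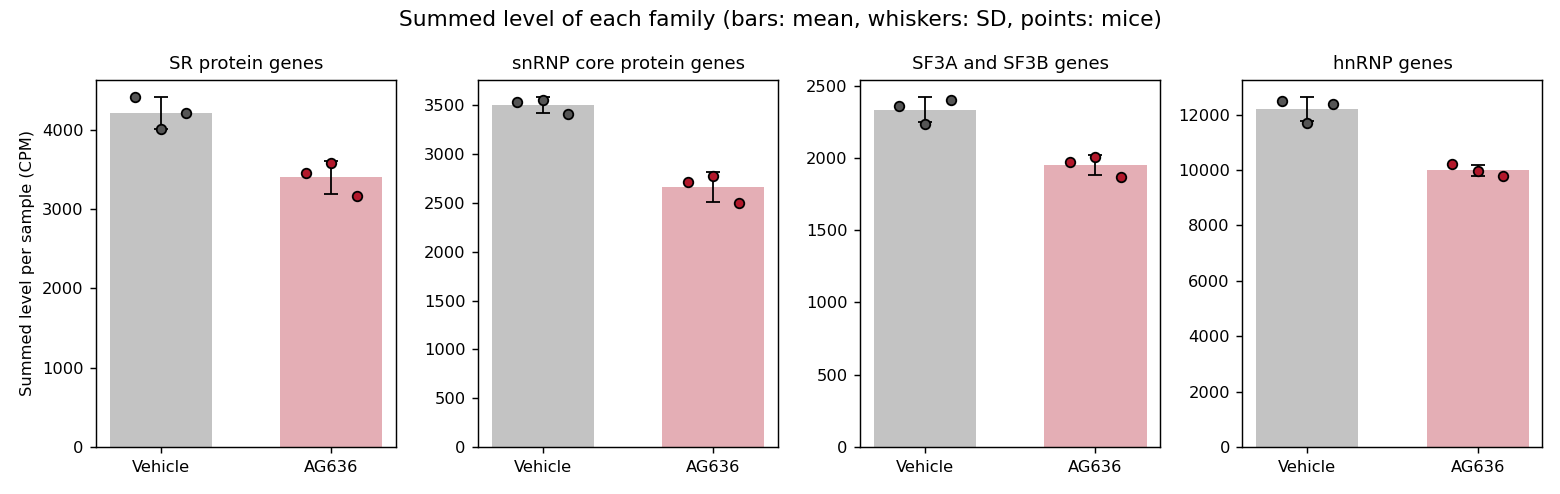
The vertical axis gives the summed level in CPM of all members of a family in each mouse (points), with the group mean (bar) and SD (whisker), for 3 Vehicle and 3 AG636 mice. In each of the 4 families, after TMM scaling, every AG636 point lies under every Vehicle point, with differences of the means from 16.4% for SF3A and SF3B to 24.0% for the snRNP protein genes (labelled snRNP core).

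The hnRNP genes summed to 12194 ± 432 CPM with vehicle and 9984 ± 208 CPM with AG636, which is 18.1% lower. All 20 were tested, 17 had a negative log2 fold change, the median was -0.23, and 7 were called. Calls took 4 of the 6 genes for hnRNP C, K, L, LL, M and R, namely *Hnrnpm*, *Hnrnpc*, *Hnrnpk* and *Hnrnpll*, 2 of 7 of the A/B and D genes (*Hnrnpa1* and *Hnrnpab*), 1 of 3 of the U genes (*Hnrnpu*) and 0 of 4 of the F and H genes. *Hnrnpm*, a binder of GU-rich RNA, was at 777, 819 and 851 CPM with vehicle and 610.0, 487 and 584 CPM with AG636 (chr17:33646233-33686860, minus strand). All AG636 mice lay under the Vehicle mice, and the log2 fold change was -0.54 (SE 0.12, adjusted p = 0.0126, edgeR). *March2* shares exons with *Hnrnpm* on the same strand, had 1254 counts against 23021 and a log2 fold change of 0.10, not called. *Hnrnpc*, whose tetramers bind uridine tracts and measure transcript length, was at 776, 742 and 779 CPM and 568, 596 and 560.4 CPM (log2 fold change -0.41, SE 0.10, adjusted p = 0.0170, edgeR). *Hnrnpk*, a poly(C)-binding protein, was at 1638, 1675 and 1622 CPM and 1316, 1302 and 1289 CPM, with little spread within groups. Its log2 fold change was -0.34 (SE 0.09, adjusted p = 0.0267, edgeR). *Hnrnpll*, known for its part in *Ptprc* splicing in lymphocytes, had the fewest counts of the called members, with 57.2, 34.0 and 55.8 CPM and 32.9, 26.6 and 29.4 CPM. Vehicle replicate 2 was close to the AG636 mice (log2 fold change -0.72, SE 0.21, adjusted p = 0.0386, edgeR).

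*Hnrnpa1*, a major repressor of splice sites, was at 906, 904 and 875 CPM with vehicle and 617, 768 and 609 CPM with AG636, a log2 fold change of -0.43 (SE 0.12, adjusted p = 0.0288, edgeR). *Hnrnpab* was at 1213, 995 and 1158 CPM and 866, 821 and 782 CPM, a log2 fold change of -0.45 (SE 0.11, adjusted p = 0.0204, edgeR). *Hnrnpu*, a scaffold attachment factor that binds RNA and chromatin, was at 1055, 897 and 1028 CPM and 819.6, 598 and 762 CPM, a log2 fold change of -0.45 (SE 0.13, adjusted p = 0.0391, edgeR). The 3 genes had no overlap between groups, with AG636 replicate 2 the highest of its group for *Hnrnpa1* and the lowest for *Hnrnpu*. *Cox20* overlaps *Hnrnpu* on the opposite strand, with 3201 counts against 28495 and a log2 fold change of -0.21, not called. Also on the opposite strand, *Phykpl* overlaps *Hnrnpab* (646 counts against 32153) and *Rmi1* overlaps *Hnrnpk* (907 counts against 49085). The call of *Hnrnpu* was lost without any 1 mouse (adjusted p from 0.0504 to 0.103, edgeR) and that of *Hnrnpll* without any but Vehicle replicate 2 (0.0716 to 0.107). *Hnrnpk* and *Hnrnpa1* lost it without AG636 replicate 1 or 3 or Vehicle replicate 1 or 2 (0.0675 to 0.0901 and 0.0640 to 0.108), *Hnrnpab* without AG636 replicate 1 or 3 or Vehicle replicate 1 (0.0505 to 0.0789) and *Hnrnpc* without AG636 replicate 1 or 3 (0.0616 and 0.0664). With library size alone *Hnrnpk*, *Hnrnpa1*, *Hnrnpll* and *Hnrnpu* were not called (0.0583 to 0.0750), and limma-voom did not call *Hnrnpll* (0.0606).

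Among the hnRNP genes not called, *Hnrnpf*, a G-tract binder, was at 1437, 1095 and 1336 CPM with vehicle and 1093, 909 and 958 CPM with AG636. The highest AG636 mouse and the lowest Vehicle mouse were nearly equal, and the adjusted p was 0.0548 (edgeR) at a log2 fold change of -0.39. *Hnrnpd*, or AUF1, a regulator of AU-rich mRNAs, was at 481, 478 and 396 CPM and 329, 413 and 328 CPM, and its relative *Hnrnpdl* at 466, 415 and 384 CPM and 314, 531 and 313 CPM. In both genes, as in *Srsf10*, AG636 replicate 2 stood at or above the lowest Vehicle mouse and the other AG636 mice lay under all Vehicle mice. With all mice neither was called, at a log2 fold change of -0.34 for *Hnrnpd* (SE 0.13, adjusted p = 0.0926, edgeR) and -0.13 for *Hnrnpdl* (SE 0.20, adjusted p = 0.671, edgeR). Without AG636 replicate 2 *Hnrnpd* had an adjusted p of 0.0375 and *Hnrnpdl* one of 0.0440 (edgeR), with log2 fold changes of -0.46 and -0.43. *Hnrnpd* also passed without Vehicle replicate 3 (-0.45, adjusted p = 0.0434, edgeR) and with no low-count filter (adjusted p = 0.0488, edgeR), and without any other mouse its adjusted p was 0.204 to 0.257. *Hnrnpdl* was at -0.0027 without AG636 replicate 1 and 0.0041 without AG636 replicate 3, and without any mouse other than AG636 replicate 2 its adjusted p was 0.514 or more. *Hnrnpa2b1* was at 1123, 1086 and 1183 CPM and 1135, 1025 and 1073 CPM, a log2 fold change of -0.07 with a standard error of 0.10 (adjusted p = 0.639, edgeR), although its close relative *Hnrnpa1* was called. The difference between these paralogs was not tested. *Hnrnpa3* had a log2 fold change of -0.03 (696 against 682 CPM) and is uncertain, since 19 other genes, 17 of them pseudogenes, hold a stretch of at least 75 bases at 98% identity or more to its last 500 bases. *Taok3*, the most counted of those, had 15497 counts against 22570. *Hnrnph1* is uncertain in the same way, with 2013 counts against 5010 for *Setd1b*, which holds such a stretch. The other uncalled genes, *Hnrnph2*, *Hnrnpul2*, *Hnrnpa0*, *Hnrnpl*, *Hnrnpul1*, *Hnrnpr* and *Hnrnph3*, had log2 fold changes from -0.24 to 0.15, and of these *Hnrnpa0* alone had groups that did not overlap. The called members had a median level, not scaled to gene length, of 469 CPM with vehicle and the members not called one of 342 CPM, and the median standard error was 0.12 in both, against 0.20 for all genes tested.

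The rest of the splicing machinery was described with 8 further lists of 182 genes, of which 181 were in the table and 172 were tested. Of these, 40 were called lower (23.3%) and 5 higher (2.91%), with a median log2 fold change of -0.17. Over all genes tested 11.0% were called lower and 10.3% higher, with a median of 0.03. Without 1 mouse the lower calls were 15 (AG636 replicate 3), 18 (AG636 replicate 1), 23 (Vehicle replicate 2) and 25 (Vehicle replicate 1), and the higher calls were 1 without AG636 replicate 1 or 3, 2 without Vehicle replicate 1 or 2 and 3 without Vehicle replicate 3. In the order of those lower calls, 4.03%, 5.54%, 6.10% and 6.18% of all genes tested were called lower. Proteins of the tri-snRNP and the LSm ring had the lowest median, -0.35, with 11 of 28 called lower and 0 higher. *Txnl4a*, a small U5 protein, was at 54.0, 57.2 and 61.9 CPM with vehicle and 22.3, 30.3 and 26.8 CPM with AG636 (log2 fold change -1.12, SE 0.16, adjusted p = 0.00349, edgeR). *Snu13*, which binds the kink-turn of U4 and of box C/D snoRNAs, went from 482 ± 28.3 CPM to 261 ± 17.8 CPM (adjusted p = 0.00245, edgeR), and *Lsm2* from 157 ± 11.4 CPM to 89.9 ± 3.17 CPM (adjusted p = 0.00360, edgeR). Of 17 snRNP assembly genes tested 5 were called lower and 0 higher, with a median of -0.32. They include *Gemin5*, the snRNA-binding subunit of the SMN complex (82.2, 62.3 and 57.7 CPM against 34.4, 33.8 and 25.7 CPM, log2 fold change -1.11, adjusted p = 0.00529, edgeR). *Prmt5* and *Wdr77*, of the complex that methylates Sm proteins, were also called, with log2 fold changes of -0.70 and -0.64 (adjusted p = 0.00621 and 0.0101, edgeR). In the list of U1, U2-associated and U2AF proteins 6 of 21 were called lower and 0 higher, with a median of -0.22. *U2af2*, which binds the polypyrimidine tract, was at 694, 668 and 573 CPM and 386, 361 and 386 CPM (log2 fold change -0.77, adjusted p = 0.00366, edgeR). *Phf5a*, an SF3B subunit that the naming rule leaves out, was at 502, 488 and 371 CPM and 255, 273 and 224 CPM (log2 fold change -0.86, adjusted p = 0.00521, edgeR), and *U2surp* had a log2 fold change of -0.52 (adjusted p = 0.0158, edgeR).

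Prp19-related and catalytic proteins had 8 of 27 genes called lower, among them *Prpf19* (-0.59), *Bud31* (-0.57) and *Ctnnbl1* (-0.64 in log2 fold change), and 1 called higher, *Slu7*, a second-step factor, at 91.1, 94.0 and 100.1 CPM with vehicle and 123, 118 and 128 CPM with AG636. Their median log2 fold change was -0.18. Exon junction complex genes had 2 of 11 called lower, *Eif4a3* (-0.51) and *Rbm8a* (-0.36), which is 18.2% beside 11.0% of all genes tested, and a median of -0.20. *Magoh*, the partner of *Rbm8a* in the complex, was at 249, 240.3 and 255 CPM with vehicle and 203, 205 and 163 CPM with AG636, without overlap, and just missed the threshold (log2 fold change -0.38, SE 0.12, adjusted p = 0.0507, edgeR). The 12 minor spliceosome genes tested had 0 calls in either direction, 1 with an unadjusted p under 0.05 (*Snrnp48*), and a median of 0.05, the largest log2 fold change being 0.50 for *Txnl4b* (SE 0.28, adjusted p = 0.219, edgeR). *Snrnp48*, a protein of the U11/U12 snRNP, was at 181, 173 and 151 CPM with vehicle and 136, 142 and 139 CPM with AG636, without overlap (log2 fold change -0.28, adjusted p = 0.113, edgeR), and *Scnm1* had a log2 fold change of 0.30 with overlapping groups (adjusted p = 0.331, edgeR). The kinases and SR-like proteins that act on or beside SR proteins were mixed, with 3 of 21 called lower (14.3%, beside 11.0% of all genes tested), 1 higher (4.76%, beside 10.3%) and a median of 0.02. *Srpk1*, the cytoplasmic SR protein kinase, was at 275, 271 and 283 CPM and 197, 185 and 190.3 CPM (log2 fold change -0.53, adjusted p = 0.00906, edgeR). *Tra2b* and *Srrm2* were also lower, with log2 fold changes of -0.41 and -0.38, whereas the nuclear kinase *Clk1* was higher, at 96.5, 103 and 114 CPM and 139, 129 and 155 CPM (log2 fold change 0.43, adjusted p = 0.0363, edgeR). *Rsrp1* had the largest log2 fold change of that list, 0.66, and was not called. Other RNA-binding regulators had 5 of 35 called lower and 3 higher (14.3% and 8.57%, beside 11.0% and 10.3% of all genes tested), with a median of -0.16. *Elavl1*, the mRNA stabilizer HuR, was at 221, 204 and 221 CPM and 121, 103 and 116 CPM (log2 fold change -0.93, adjusted p = 0.00247, edgeR), and *Pcbp1*, a relative of *Hnrnpk*, at 973, 915 and 1059.6 CPM and 709.8, 615 and 711 CPM (log2 fold change -0.53, adjusted p = 0.0114, edgeR). *Cirbp*, a cold-inducible RNA-binding protein, rose, from 37.3, 49.97 and 33.0 CPM to 117, 201 and 104 CPM, a log2 fold change of 1.80 (SE 0.26, adjusted p = 0.00329, edgeR). AG636 replicate 2 was the highest of the 3 treated mice for *Cirbp*, and all of them lay above all Vehicle mice.

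**Figure D4:**
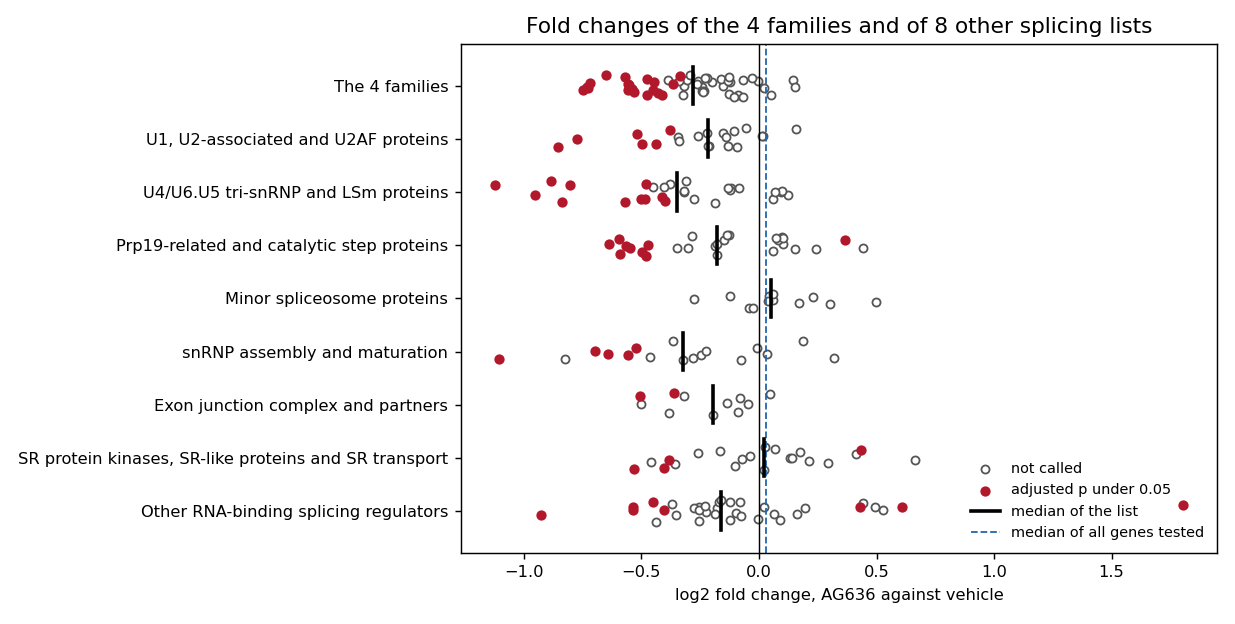
Each point is the log2 fold change (horizontal axis) of 1 gene in the 4 families or in 1 of the 8 other splicing lists (rows), filled for an adjusted p under 0.05, with the list's median as a vertical bar and the median of all genes tested as a dashed line. The medians lie left of the dashed line except for the minor spliceosome list, at 0.05, and the SR kinase and SR-like list is close to it, at 0.02.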

How the data were processed

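The authors deposited raw counts per gene for 6 libraries of 3′ end tags (QuantSeq). The submitters' processing notes name FastQC, cutadapt 1.9.1, HISAT2 2.0.4 and featureCounts of Subread 1.5.0-p3 with mm10, and the annotation release, strand setting and handling of multi-mapping reads are not given in the sources used here. Of 54838 rows, 54809 matched GENCODE M21. The members and lists were chosen with earlier results of these data known. Genes were kept by filterByExpr (minimum count 10, minimum total 15), scaled by TMM and compared without a block by edgeR's quasi-likelihood test (R 4.3.3, edgeR 4.0.16) with Benjamini-Hochberg adjustment and a threshold of 0.05, after tests on simulated data. The standard error is the size of the log2 fold change over the square root of F. CPM use the scaled library sizes, in which 3 counts are 0.392 to 0.637 CPM, and these limits cover counting error only.

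Alternatives were DESeq2 1.42.0, limma-voom (limma 3.58.1), median-of-ratios factors, library size alone, a fit with all genes, one limited to genes with 10 or more counts in each mouse, a replicate block and leaving out each mouse. No pair of replicates agreed within sampling noise (chi-square per degree of freedom 6.22 to 14.6). Every called member was named, then of the others the 2 highest in level and the 2 with the largest change per family, and of each further list the 3 lowest adjusted p and the largest change. *Slu7*, *Clk1* and the members named beyond this were named after their values were seen. Copies of the last 500 bases of each member (at least 75 bases, 98% identity) were sought with BLAST among GENCODE transcripts. Protein sequences were not analysed here.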

Additional observations from a re-analysis of the deposited data

How the results depend on the processing

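No member changed direction while called under any of the 13 alternatives, and 0 members were called higher in any of them. The number called lower was 14 to 21 over the 7 alternatives that keep all mice, against 19. In these 7 fits 7.58% to 11.8% of all genes tested were called lower, against 11.0%. Library size alone left 3 hnRNP genes called lower in place of 7, with median log2 fold changes of -0.23 for the SR protein genes, -0.21 for the snRNP protein genes, -0.18 for the SF3A and SF3B genes and -0.15 for the hnRNP genes, and it moved the median of all genes by 0.09. Leaving out 1 mouse gave 5 to 19 members called lower: 0 to 4 SR protein, 3 to 4 snRNP protein, 1 to 4 SF3A and SF3B and 1 to 7 hnRNP genes. The medians then ranged from -0.37 to -0.26, -0.39 to -0.25, -0.36 to -0.23 and -0.31 to -0.22 in the same order, and over all genes 452 to 1298 were called lower and 399 to 1074 higher, against 1222 and 1146. For the 8 other splicing lists, whose alternatives were chosen after seeing the data, leaving out 1 mouse gave 15 to 36 genes called lower and 1 to 5 called higher, against 40 and 5, and the other alternatives gave 28 to 46 and 4 to 7. The fits without 1 mouse hold fewer samples. The replicate numbers share no animal, and the deviations of same-numbered samples correlated at -0.06, -0.18 and 0.23, so they were not treated as pairs. With a replicate block 19 members were called lower (3 SR protein, 4 snRNP protein, 4 SF3A and SF3B and 8 hnRNP genes). *Srsf6* then missed the threshold and *Hnrnpf* passed it, and 1046 genes were called lower and 914 higher overall. The low-count filter left *Srsf12*, with 2 counts, and *Snrpn*, with 0, untested.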
